A study of Mus musculus with 36 samples.

Results

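The SoxB1 transcription factors Sox1, Sox2 and Sox3 were followed together with 7 other genes of the caudal nervous system, Pax6, Irx3, Neurog2, Olig3, Mnx1, Nrcam and Hes3. These 10 genes were chosen by name, and every probe carrying one of their symbols in the non-normalised table was taken, which gave 15 probes among 45281 probes for 30869 genes. A probe was tested where it was detected, at a detection p-value below 0.01, on at least 1 of 36 arrays. This left 21712 tested probes for 15556 genes, among them 11 probes for 8 of the 10 genes. Sox1 and Pax6 had no tested probe.

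The study profiled pieces of wild-type MF1 mouse embryos that differ in the fate of their cells, on Illumina MouseWG-6 v2.0 BeadChips with 6 arrays each. Each array held RNA from a pool of 6 to 74 pieces, and 12 regions had 2 arrays and 4 regions had 3. E7.5 embryos gave an anterior piece (A), a posterior piece (P) and one from the proximal part of the posterior side (PP). E8.5 embryos gave RN, the rostral node, and NSB, the border between node and streak. They also gave CLE, the caudal epiblast lateral to the streak, St1, its anterior end, and St5, its posterior end. Later embryos gave the chordoneural hinge of the tail bud (CNH) at each of 5 stages, E9.5 to E13.5, and at E9.5, E10.5 and E11.5 also the part behind the hinge (P-CNH). No mutation or treatment is named for any of them. The arrays fell into 3 batches of 12. Batch 1 held all the E10.5 arrays, all those of RN, St5 and St1, and NSB replicates 1 and 2. NSB replicate 3, in batch 3, is its only tie to the rest. A comparison of a batch 1 region with CLE, or of NSB with E9.5 CNH, therefore leans on that array.

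SoxB1 proteins bind DNA through an HMG box and hold neural progenitors in an undifferentiated state, and Sox2 is also expressed, with T, in the neuromesodermal progenitors that supply the spinal cord and the somites. As neural cells leave the caudal epiblast, homeodomain factors such as Irx3 and Pax6 pattern them along the dorsoventral axis, and basic helix-loop-helix factors such as Neurog2 and Olig3 start neurogenesis or set dorsal progenitor identity. Mnx1 marks motor neurons and also notochord and tail bud tissue, Nrcam is a cell adhesion molecule of the nervous system, and Hes3 is a transcriptional repressor of the Hes family that keeps neural progenitors from differentiating.

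Promoters in the RefSeq table, 300 bases each (250 before the start of transcription and 50 from it on) in build GRCm38.p6, were available for 8 of the 10 genes, and Sox3 and Hes3 had none. Those of Sox2, Olig3 and Nrcam are shown because these genes were higher in the rostral node than in the posterior streak and carry most of the results that follow. They lie at chr3:34649745-34650044 (+), chr10:19356289-19356588 (+) and chr12:44328635-44328934 (+). Capitals mark a match to either of the Sox core motifs ACAAAG and ACAATG, searched on both strands.
Sox2: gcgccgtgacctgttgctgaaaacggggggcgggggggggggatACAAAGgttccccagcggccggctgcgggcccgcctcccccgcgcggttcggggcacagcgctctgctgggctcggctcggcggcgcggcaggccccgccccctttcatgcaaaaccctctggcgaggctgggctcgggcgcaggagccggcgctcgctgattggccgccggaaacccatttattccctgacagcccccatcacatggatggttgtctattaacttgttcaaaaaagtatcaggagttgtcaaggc
Olig3: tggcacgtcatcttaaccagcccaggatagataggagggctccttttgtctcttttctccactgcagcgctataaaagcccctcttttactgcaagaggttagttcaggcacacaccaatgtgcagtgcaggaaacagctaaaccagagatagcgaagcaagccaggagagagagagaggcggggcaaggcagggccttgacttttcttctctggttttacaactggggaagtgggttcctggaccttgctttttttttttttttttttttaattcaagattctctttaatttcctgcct
Nrcam: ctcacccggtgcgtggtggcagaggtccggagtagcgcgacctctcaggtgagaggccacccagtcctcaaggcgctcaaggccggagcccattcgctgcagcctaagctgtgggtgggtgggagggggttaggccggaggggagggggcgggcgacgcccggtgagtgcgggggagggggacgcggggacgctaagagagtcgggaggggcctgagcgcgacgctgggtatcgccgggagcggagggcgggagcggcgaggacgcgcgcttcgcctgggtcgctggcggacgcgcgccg
The Sox2 promoter held 1 match, starting at base 45, and those of Olig3 and Nrcam held 0. Among the 9 promoters of the members, 2 had a match (Sox2 and 1 of the 2 of Pax6), and 28.6% of all 32851 promoters in the table did. GC content was 66.3% for Sox2, 46% for Olig3 and 74% for Nrcam, beside a median of 52.7% over all promoters. A match describes the letters only.

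Sox2 was measured by a pair of tested probes, and on many arrays only 1 of them detected it. The lead probe, ILMN_2656102, has the higher mean and was detected on 29 of 36 arrays. The further probe, ILMN_1248711, was detected on 17. On the log2 intensity scale, the lead probe gave 8.13 and 7.97 in RN, 7.60, 7.69 and 5.54 in NSB, 7.47, 6.56 and 6.62 in CLE, 7.37 and 7.32 in St1, and 5.49 and 5.11 in St5, where it was not detected. RN stood highest at E8.5, St5 lowest, and NSB replicate 3, also undetected, lay more than 2 log2 units below the other NSB arrays, next to St5. The further probe gave 8.24 and 8.86 in RN, 7.82, 7.77 and 6.69 in NSB, 5.10, 6.47 and 6.41 in CLE, 6.92 and 7.49 in St1, and 5.02 and 5.12 in St5. In these array values both probes placed RN at the top of the E8.5 pieces and found no signal in St5, while in CLE the further probe was detected only on replicate 3. CLE replicate 2 read slightly higher (6.47 against 6.41), but the lowest detected value of any probe was 6.65 there and 5.88 on replicate 3.

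On other arrays the 2 probes parted, at E8.5 on NSB replicate 3, detected only by the further probe, and on CLE replicate 1, detected only by the lead probe. In E7.5 A the lead probe gave 8.54, 9.24 and 5.77 and the further probe 5.02, 4.91 and 8.03, so that replicates 1 and 2 were detected only by the lead probe and replicate 3 only by the further one. In E9.5 CNH the lead probe gave 7.91 and 7.84 and the further probe, undetected, 4.92 and 4.91. In E10.5 CNH, in batch 1, both probes were detected, the lead probe at 7.94 and 7.23 and the further probe at 7.97 and 7.87, as they were in E10.5 P-CNH. A reading of Sox2 from the further probe alone would have no signal in E9.5 CNH or in E7.5 P, where the lead probe was detected on every array.

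The split followed the batches. In batches 1, 2 and 3, the lead probe was detected on 10, 12 and 7 of 12 arrays, and the further probe on 10, 0 and 7. All 12 arrays of batch 2 lay between 4.56 and 5.10 on the further probe, while they ran from 6.43 to 9.24 on the lead probe. Of the tested probes, 229 (1.05%) shared this pattern of being undetected throughout batch 2 and detected at least as often elsewhere. Within batch 1 the probes rose and fell together (Pearson r = 0.931, Spearman rho = 0.846, over 12 arrays). In batch 2 r was -0.272 and rho -0.364, in batch 3 r was 0.0653 and rho 0.126, and over all 36 arrays r was -0.0293. These coefficients describe arrays that share regions and are given without a test.

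A test chosen after the values had been seen compared batch 3 with batch 2 in the limma fit, with region held in the model; 6 regions have arrays in both. The lead probe was lower in batch 3 by a log2 difference of -1.05 (SE 0.323, adjusted p = 0.0148) and the further probe was higher (adjusted p = 1.99e-08). As the further probe was undetected throughout batch 2, the fit gives no size for its shift, and the test repeats what prompted it. Such calls were common, at 27.2% of all tested probes. A fitted shift larger than that of the lead probe was found for 11.9% of probes, and larger than that of the further probe for 1.64%. The further probe was higher in batch 3 in all 6 regions, although in E13.5 CNH it was undetected in both batches. The lead probe was lower in A, CLE, E11.5 CNH and E12.5 CNH and higher in E13.5 CNH (1.00) and E9.5 P-CNH (0.10). The difference between the probes also shifted (adjusted p = 3.71e-05), as it did for 37.7% of the 6156 probe pairs in the table. A larger shift of this kind was found in 42 pairs. What sets the further probe apart in batch 2 was not tested.

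**Figure D1:**
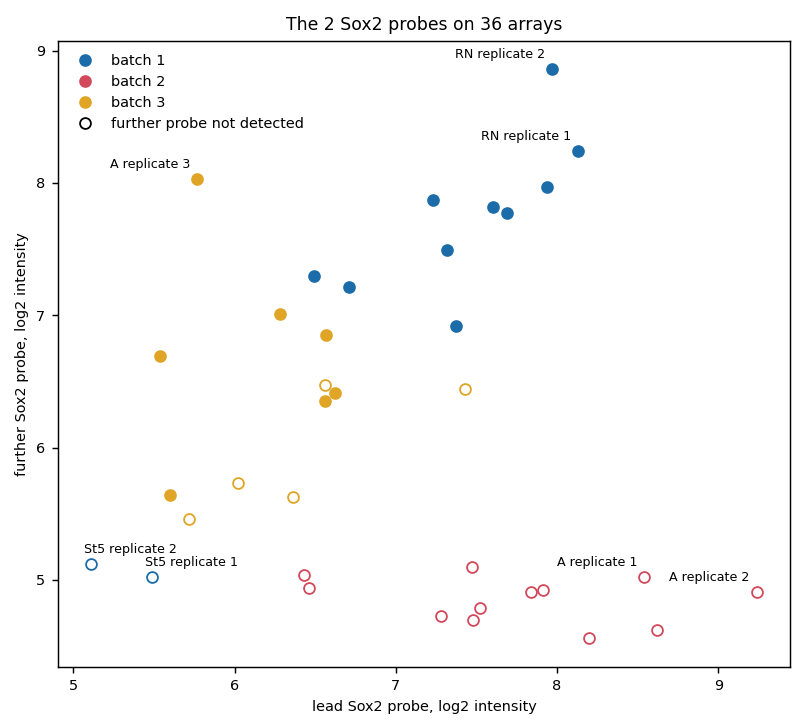
Log2 intensity of the further Sox2 probe (vertical axis) against the lead Sox2 probe (horizontal axis) on 36 arrays, coloured by batch, with open circles where the further probe was not detected. The 12 arrays of batch 2 lie flat between 4.56 and 5.10 on the further probe, while batch 1 rises along the diagonal (r = 0.931).

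With batch in the model, no difference in regional pattern between the Sox2 probes was found (F = 0.397, adjusted p = 1 in limma), beside 9.32% of all 6156 probe pairs called. The test has little hold on P and E9.5 CNH. All their arrays lie in batch 2, where the further probe was undetected, and its fitted levels there (6.31 and 6.59, against array means of 4.63 and 4.91) are background plus the batch term, so a regional difference of the probes could not have shown in them. Among the members' other pairs, the Neurog2 probes differed in pattern (F = 4.19, adjusted p = 0.0222), whereas the Sox3 probes did not pass the threshold (F = 3.09, adjusted p = 0.0848). The Neurog2 probes were detected on only 2 and 4 of 36 arrays, and the further Sox3 probe on 4. Both tests thus rest largely on undetected values. Over the 16 fitted region means the Sox2 probes had r = 0.76 and rho = 0.509, a description over points that share arrays and the batch term.

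At E8.5 most members stood high in the rostral node and low in the posterior streak, where 7 of the 8 tested genes were not detected. Between RN and St5, 5 of the 8 tested genes were called higher in RN and 0 lower, beside 6.05% of tested probes called, and the members' median log2 difference was 2.37 against -0.01 over all genes. NSB against St5 gave 4 higher (background 5.21%, median 1.74), St1 against St5 gave 2 (3.27%, median 1.05) and CLE against St5 gave 1 (1.48%, median 1.08). No member was called lower in any of these. In CLE against St5 alternatives to the batch term called more. Nrcam (1.24 here, adjusted p = 0.226) was called without the batch term (2.13, adjusted p = 6.46e-05), with batch means removed before the fit (1.63, adjusted p = 8.4e-05) and with BeadChip as a random block (1.81, adjusted p = 0.000737), as well as with loess normalisation (1.51, adjusted p = 0.0137). Olig3 (0.92 here) was called in the first 3 of these settings (1.37, 1.26 and 1.30), and Sox3 (1.28 here) without the batch term (2.27, adjusted p = 0.0314). The comparisons share the St5 arrays, and all but that with CLE lie within batch 1, where they equal the differences between its arrays alone. Fewer cells of a type and less RNA per cell cannot be told apart in pooled pieces.

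For Sox2 the lead probe was higher in RN than in St5 by 2.75 (SE 0.605, adjusted p = 0.00434), and since it was not detected in St5 the difference is at least 5.23-fold. NSB exceeded St5 by 2.35 (SE 0.605, adjusted p = 0.0192, at least 2.43-fold), while St1 did not pass on this probe (2.04, adjusted p = 0.0752). Nor did CLE (3.35, adjusted p = 0.082), whose value leans on NSB replicate 3: the array means were 6.88 in CLE and 5.30 in St5, and the difference was 1.92 (adjusted p = 0.0485) with batch means removed before the fit. It was 3.38 (adjusted p = 0.0137) and 2.43 (adjusted p = 0.0414) with BeadChip as a fixed and as a random block. For St1 the difference was called with BeadChip as a fixed block (adjusted p = 0.00985) and with the replicate block (adjusted p = 0.0413). It was also called with loess normalisation (2.09, adjusted p = 0.044) and in batch 1 alone (adjusted p = 3.89e-05). The further probe passed against St5 in RN (3.48, SE 0.323, adjusted p = 7.74e-08, at least 7.39-fold), in NSB (2.72, adjusted p = 3.11e-06), in St1 (2.13, adjusted p = 0.000188) and in CLE (2.68, SE 0.497, adjusted p = 0.00413). The lower bounds for the last 3 are 3.39-fold, 2.91-fold and 1.26-fold. It was also higher in RN than in St1, by 1.35 (SE 0.323, adjusted p = 0.0216). Without the batch term, of these 5 calls only that of RN over St5 is kept. Against St5 the others are then 2.35 in NSB (adjusted p = 0.0918), 2.13 in St1 (adjusted p = 0.371) and 0.92 in CLE (adjusted p = 0.483), and RN over St1 is 1.35 (adjusted p = 1), so that apart from CLE the calls were lost with little or no change in the differences. The calls of CLE over St5 and RN over St1 are also lost with BeadChip as a random block (adjusted p = 0.334 and 0.368), and the latter with loess normalisation (adjusted p = 0.264). The call of RN over St5 on the lead probe is lost without RN replicate 1 or without St5 replicate 2, when the adjusted p reaches 0.0673. That of NSB over St5 on the lead probe is lost without either St5 array or NSB replicate 1 or 2 (adjusted p up to 0.201), without the batch term (adjusted p = 0.342), without background correction (adjusted p = 0.0738) and with an offset of 100 (adjusted p = 0.118), and that of RN over St1 on the further probe without St1 replicate 1 or RN replicate 2 (adjusted p up to 0.533).

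Sox3 was read from ILMN_1245319, detected on 21 of 36 arrays. Its values at E8.5 were 6.90 and 6.71 in RN, 6.29, 6.54 and 7.23 in NSB, 8.10, 4.77 and 8.40 in CLE, 6.32 and 6.32 in St1, and 4.86 and 4.78 in St5. St5 and CLE replicate 2 were undetected, and the other CLE arrays were the highest of the stage. No E8.5 comparison passed for Sox3, RN against St5 included (1.98, adjusted p = 0.137). Batch 1 fitted alone, with 12 arrays, called this same difference (1.98, adjusted p = 3.45e-05). The second Sox3 probe, ILMN_2976077, was detected on 4 arrays only, A replicate 2, both arrays of P and CLE replicate 3, at 6.02 to 7.11.

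**Figure D2:**
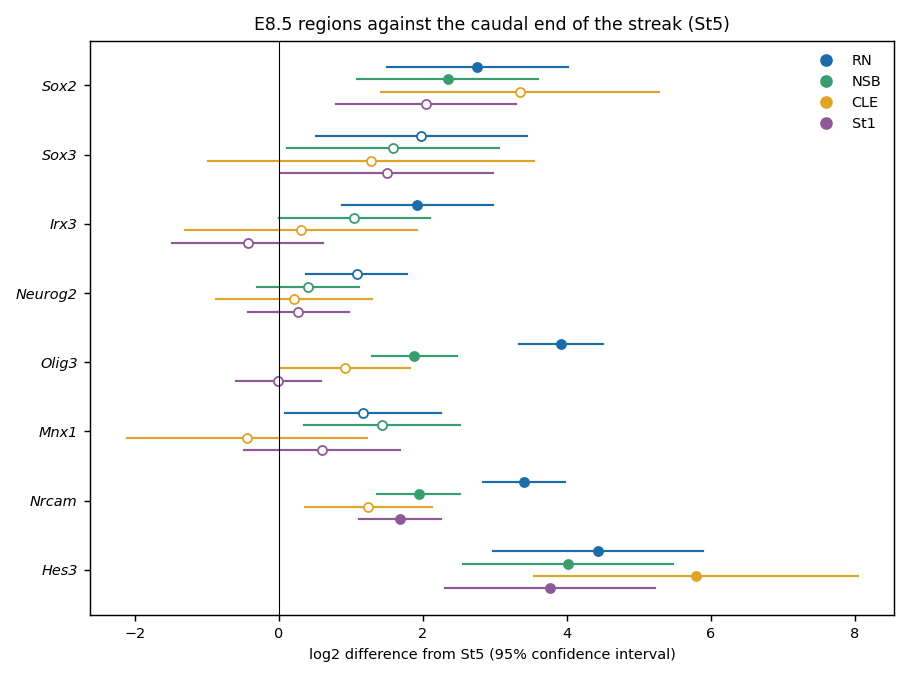
Log2 difference from St5 (horizontal axis) of each member's lead probe (vertical axis) in RN, NSB, CLE and St1 at E8.5, with 95% confidence intervals from the limma fit, filled points where the difference was called and open points where it was not. Points right of 0 are higher than in St5, and Hes3 and Olig3 reach 4.43 and 3.92 in RN.

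Irx3, a homeodomain factor of the neural plate, was the most widely detected member, on 32 of 36 arrays (ILMN_2776909). At E8.5 it gave 9.81 and 9.57 in RN, 8.72, 8.90 and 8.72 in NSB, 8.08, 7.41 and 8.52 in CLE, 7.64 and 7.03 in St1, and 7.89 and 7.63 in St5. RN lay above every other piece without overlap, and St5, where most members were undetected, was detected on both arrays at the level of St1. Irx3 was higher in RN than in St1 by 2.35 (SE 0.505, adjusted p = 0.00805) and than in St5 by 1.92 (SE 0.505, adjusted p = 0.0192). The first call is lost without either RN array or St1 replicate 2 (adjusted p up to 0.187) and the second without any array of RN or St5 (up to 0.179). Both calls are also lost with batch means removed before the fit (adjusted p = 0.0604 and 0.095), where the differences themselves are the same. Pax6, a paired homeodomain factor of maturing neural progenitors, was not detected on any array by ILMN_2612187 or ILMN_2504978 (lowest detection p-values 0.182 and 0.296). Sox1, which marks neural plate cells, was not detected either (ILMN_2739469, 4.51 to 5.35, lowest detection p-value 0.0374). Their levels in these regions lay under what these probes could detect.

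Among the basic helix-loop-helix genes, Olig3 (ILMN_1234377) showed a steep fall from the node backwards. Its values were 9.22 and 9.19 in RN, 7.29, 7.04 and 7.61 in NSB, 6.68, 6.69 and 6.58 in CLE, 5.44 and 5.11 in St1, and 5.23 and 5.33 in St5. RN, NSB, CLE and the streak pieces formed 4 levels without overlap, with St1, St5 and CLE replicate 1 undetected. On CLE replicate 1 the lowest detected value of any probe was 7.1, so a level like that of the other CLE arrays could not be detected there. Olig3 was higher in RN than in NSB by 2.04 (SE 0.282, adjusted p = 0.000987, or 0.0539 without NSB replicate 2) and than in CLE by 3.00 (SE 0.434, adjusted p = 0.000166). NSB in turn exceeded St1 by 1.89 (adjusted p = 0.000175) and St5 by 1.88 (adjusted p = 7.22e-05), within batch 1 at least 2.93-fold and 2.83-fold.

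Neurog2, a proneural factor, was at the limit of detection. The further probe ILMN_1213024 gave 7.15 and 7.59 in RN and 5.83, 6.13 and 5.87 in NSB, of which NSB replicate 3 was undetected, and it was undetected on all other arrays of the series. The lead probe ILMN_2924180, ahead only by a mean of 5.08 against 5.06, was detected on the RN arrays alone, at 5.72 and 6.09. With all arrays in the model, called differences came from the further probe only, with RN over NSB by 1.38 (SE 0.254, adjusted p = 0.0236). The other pieces were undetected, so their differences have only lower bounds: RN was above CLE by at least 1.77-fold (adjusted p = 0.013), above St1 by at least 3.38-fold (adjusted p = 5.52e-07) and above St5 by at least 3.26-fold (adjusted p = 6.96e-08). NSB was above St1 by at least 1.26-fold (adjusted p = 0.0114) and above St5 by at least 1.22-fold (adjusted p = 0.000827). The lead probe was called in batch 1 alone, in RN over St1 (adjusted p = 0.00798) and over St5 (adjusted p = 0.000533), and against St5 also with loess normalisation (adjusted p = 0.00235) and with batch means removed before the fit (adjusted p = 0.048). The call of RN over NSB is lost without either RN array or NSB replicate 1 or 2 (adjusted p up to 0.56), that over CLE without NSB replicate 1 or RN replicate 2 (up to 0.105) and that of NSB over St1 without either St1 array or NSB replicate 2 (up to 0.284). These 3 calls are also lost without background correction (adjusted p = 0.0551, 0.0576 and 0.111), and with an offset of 100 those of NSB over St1 and St5 (0.40 and 0.45) are lost. Its called differences are not in the counts of genes, which rest on lead probes.

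Mnx1 (ILMN_2827236) gave 6.43 and 6.34 in RN, 6.40, 6.89 and 7.54 in NSB, 5.49, 5.05 and 6.59 in CLE, 5.82 and 5.82 in St1, and 5.12 and 5.32 in St5, with CLE replicates 1 and 2 and St5 undetected. NSB was the highest piece on average, but no E8.5 comparison passed for Mnx1. Batch 1 alone called it higher than in St5 in RN (1.17, adjusted p = 0.000213), NSB (1.43, adjusted p = 5.06e-05) and St1 (0.60, adjusted p = 0.0204), and higher in NSB than in St1 (0.83, adjusted p = 0.00881). With BeadChip as a fixed block 4 comparisons were called, RN and NSB over CLE (2.35, adjusted p = 0.00386, and 2.61, adjusted p = 4.44e-05) and over St5 (1.17, adjusted p = 0.0088, and 1.43, adjusted p = 0.00166). A second Mnx1 probe, ILMN_2765641, was undetected on all 36 arrays.

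Nrcam (ILMN_1245780) gave 8.21 and 8.11 in RN, 6.79, 6.60 and 7.68 in NSB, 6.76, 7.18 and 6.70 in CLE, 6.65 and 6.22 in St1, and 4.75 and 4.76 in St5. RN lay above all other pieces, St5 was undetected and below all, and the middle regions overlapped. Nrcam was higher in RN than in NSB by 1.46 (SE 0.276, adjusted p = 0.0298), than in CLE by 2.16 (SE 0.424, adjusted p = 0.00487), than in St1 by 1.73 (adjusted p = 0.000338) and than in St5 by 3.40 (adjusted p = 1.01e-08, at least 5.64-fold). The CLE value leans on NSB replicate 3 and exceeds the gap between the array means (8.16 in RN and 6.88 in CLE). The call against NSB is lost without either RN array or NSB replicate 1 or 2 (adjusted p up to 0.489) and without the batch term (1.13, adjusted p = 0.335). St1 and NSB also exceeded St5, by at least 1.71-fold (adjusted p = 0.000479) and, within batch 1, at least 2.05-fold (adjusted p = 3.68e-05).

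Hes3 (ILMN_2701992) gave 9.57 and 9.45 in RN, 8.95, 9.26 and 6.15 in NSB, 7.49, 5.95 and 10.13 in CLE, 8.84 and 8.86 in St1, and 5.08 and 5.09 in St5. RN, St1 and the batch 1 arrays of NSB were high, St5 was undetected on both arrays, and CLE spread over more than 4 log2 units, with replicate 2 undetected and replicate 3 the highest array of the series. Hes3 was higher than in St5 by 4.43 in RN (SE 0.705, adjusted p = 0.000145, at least 14.4-fold) and by 4.02 in NSB (adjusted p = 0.000481, at least 5.48-fold). It also exceeded St5 by 3.77 in St1 (adjusted p = 0.00178, at least 9.12-fold) and by 5.79 in CLE (SE 1.08, adjusted p = 0.00444). The CLE value leans on NSB replicate 3, where Hes3 was itself undetected, and exceeds the gap between the array means (7.86 in CLE and 5.08 in St5), from which the difference is at least 4.57-fold.

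Fewer members separated the other E8.5 pieces. RN against St1 called 3 members higher (Irx3, Olig3 and Nrcam; background 2.24%, median 0.76), and RN against CLE 2 (1.43%, median 1.24). RN against NSB also called 2 (0.134%, median 0.54), and in both cases these were Olig3 and Nrcam. NSB against St1 called 1 (Olig3; 1.42%). NSB against CLE and CLE against St1 called 0, beside 2.4% and 0.106% of probes, with 4 and 1 members at an unadjusted p under 0.05. Other settings called Mnx1 higher in NSB than in CLE (BeadChip as a fixed block, 2.61, and as a random block, 1.65, against 1.87 here), Hes3 lower (-2.92 without CLE replicate 2, against -1.78) and Olig3 higher in CLE than in St1 (1.37 without the batch term, against 0.93). Olig3 was also called there with batch means removed (1.26) and BeadChip as a random block (1.31). Irx3 was called higher in NSB than in St1 with BeadChip as a fixed (1.48) or random block (1.55) and in batch 1 alone. Without the batch term (1.68) and with BeadChip as a fixed block (1.99) it was called higher in RN than in CLE. So was the further Sox2 probe without the batch term (2.56, against 0.80), with batch means removed (1.14) and BeadChip as a random block (2.26). Over the 10 comparisons at E8.5, 5 of 8 genes were called at least once, beside 9.04% of all genes, and in batch 1 alone, which holds 6 of the comparisons, 8 of 8 were called beside 23.3%.

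Other neural genes also separated these pieces. Of 13 tested neural progenitor genes, 7 were higher in RN than in St5 and 0 lower (median 1.76), and 7 were also higher in NSB (median 1.82) and in St1 (median 1.65). Examples in RN against St5 were Pou3f1 (3.44, adjusted p = 6.11e-06) and Sox21 (3.22, adjusted p = 4.37e-08). Of 9 tested spinal cord domain genes, 4 were higher and 1 lower in RN (median 0.31), among them Rfx4, at least 10.4-fold, and Lmx1a, at least 5.91-fold. Of 12 tested genes of neurogenesis and neurons, 1 was higher and 2 were lower (median 0.14), with Isl1, a LIM homeodomain factor also found outside neurons, falling most (-4.73, adjusted p = 3.05e-10).

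Markers of other tissues moved between the same pieces. The mean log2 level of 8 notochord and node genes, of which T had the highest intensity on every array, was 9.38 and 9.59 in RN, 9.52, 9.75 and 9.63 in NSB, 6.15, 6.59 and 6.36 in CLE, 7.36 and 7.51 in St1, and 6.93 and 6.96 in St5. In RN, 6 of the 8 were called higher than in St5, 5 than in St1 and 4 than in CLE. Of 6 tested paraxial mesoderm genes, 3 were higher in RN than in St5 and 0 lower (median 1.46), and of 6 caudal epiblast and tail bud genes, 1 was higher and 4 were lower (median -2.30). All 3 tested neural crest list genes were higher in St5 than in NSB, at a mean level of 7.99 and 8.48 in St5 against 5.43, 5.89 and 5.32 in NSB, and Ets1 had the highest intensity in St5. Blood genes were called higher in RN than in St5 for 2 of 6, with a mean level of 9.48 and 8.54 in RN against 7.77 and 6.46 in St5. The part of these tissues in the members' differences was not tested.

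**Figure D3:**
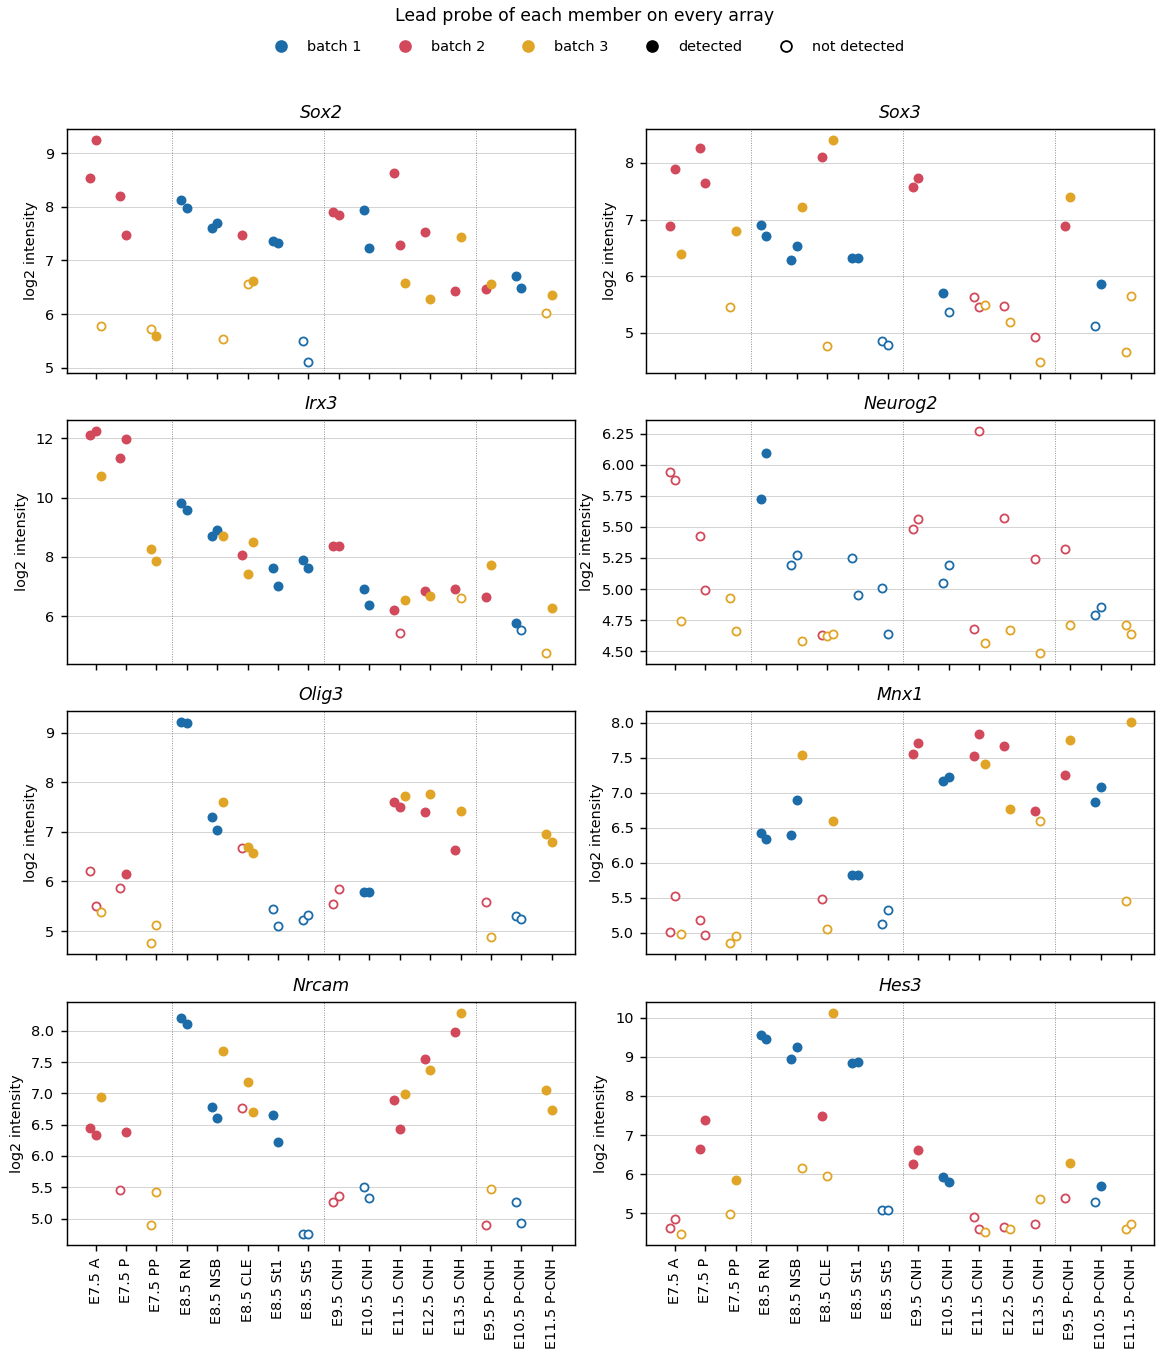
Log2 intensity of the lead probes of the 8 tested genes on each of 36 arrays (vertical axes) across the 16 regions (horizontal axis), coloured by batch, with open symbols where the probe was not detected. Olig3 stands at 9.22 and 9.19 in RN, and Irx3 peaks at 12.10 and 12.25 in E7.5 A.

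At E7.5 the member with the largest differences was Irx3, which was low in PP. Irx3 gave 12.10, 12.25 and 10.74 in A, 11.34 and 11.99 in P, and 8.27 and 7.87 in PP. A and P overlapped, and PP lay far below both. Nrcam gave 6.44, 6.33 and 6.94 in A, 5.45 and 6.38 in P, and 4.90 and 5.43 in PP, and it was undetected in PP and in P replicate 1. Hes3 showed another order, with 4.64, 4.87 and 4.47 in A, all undetected, 6.65 and 7.39 in P, and 4.99 and 5.86 in PP, where only replicate 2 was detected.

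Irx3 was higher in A than in PP by 3.58 (SE 0.495, adjusted p = 3.32e-05, 12.0-fold) and lower in PP than in P, at -3.53 (SE 0.572, adjusted p = 0.00197). The PP and P arrays lie in different batches, so that this second difference rests on the batch term. Its call is lost with BeadChip as a fixed block (-2.16, adjusted p = 0.117) and with batch means removed before the fit (-2.40, adjusted p = 0.115). Nrcam was higher in A than in PP by 1.60 (SE 0.27, adjusted p = 0.000359), at least 1.9-fold. In batch 3 alone, which holds A replicate 3 and both PP arrays, these differences were 2.67 for Irx3 and 1.78 for Nrcam. Hes3, undetected in A, was lower there than in P (-2.43, SE 0.655, adjusted p = 0.0461). Within batch 2, which holds A replicates 1 and 2 and both P arrays, the difference is at least 1.86-fold. The call is lost in 30 of the 36 fits that left out an array, with an adjusted p of up to 0.258, and also without the batch term (adjusted p = 0.164), without background correction (0.188), without a filter (0.113), with an offset of 100 (0.377), with loess normalisation (0.0998) and in batches 2 and 3 alone (0.233). In counts, A against PP called 2 members higher (background 6.15%, median 0.68 against 0.05 over all genes), PP against P 1 lower (0.792%, median -1.10 against 0.02) and A against P 1 lower (2.73%, median 0.09 against 0.06). Over the 3 comparisons 3 of 8 genes were called, beside 7.53% of all genes. With loess normalisation Olig3, undetected in A and PP, was called higher in A than in PP (1.06, adjusted p = 0.0121). It was then also called lower in PP than in P (-1.52, adjusted p = 0.00809), as was Nrcam (-1.43, adjusted p = 0.00137). Here these differences were 0.77, -1.06 and -1.05. With batch means removed Olig3 was also called in A over PP (0.83, adjusted p = 0.0496).

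The lead Sox2 probe did not pass between A and PP (1.49, adjusted p = 0.175), and without A replicate 3, the array on which it was undetected, it did (2.68, adjusted p = 0.00263). With the replicate block it also passed (2.46, adjusted p = 0.0285). Within batch 3 the difference on this probe was 0.11. The further probe passed with all arrays (1.75, SE 0.317, adjusted p = 0.00079), but A replicates 1 and 2, undetected, lay below both PP arrays, at 5.46 and 5.64. Only A replicate 3 lay above PP, and without the batch term the call was lost (0.44, adjusted p = 0.948), as it was with BeadChip as a random block (1.48, adjusted p = 0.196). Sox3 gave 6.89, 7.90 and 6.40 in A, 8.26 and 7.64 in P, and 5.46 and 6.80 in PP, and no E7.5 comparison passed for it. Of the spinal cord domain genes, 5 of 9 were higher and 1 lower in A than in PP (median 1.58), with Irx5 at 4.34 (adjusted p = 5.97e-10). Among neural progenitor genes, 2 of 13 were higher and 2 lower, with Pou3f1 at 4.03 (adjusted p = 6.78e-07).

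Visceral endoderm genes also separated A from PP, with 5 of 7 lower in A (median -2.54). Their mean log2 level was 7.15, 7.16 and 9.48 in A, 8.89 and 8.55 in P, and 11.73 and 10.54 in PP, where Ttr had the highest intensity. Of the caudal epiblast and tail bud genes, 5 of 6 were lower and 1 higher in A than in PP (median -3.78), and the counts were the same for A against P (median -3.76). A replicate 3, which differed from its fellows in Sox2, thus also stood apart in the visceral endoderm genes. The part of these tissues in the members' differences was not tested.

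**Figure D4:**
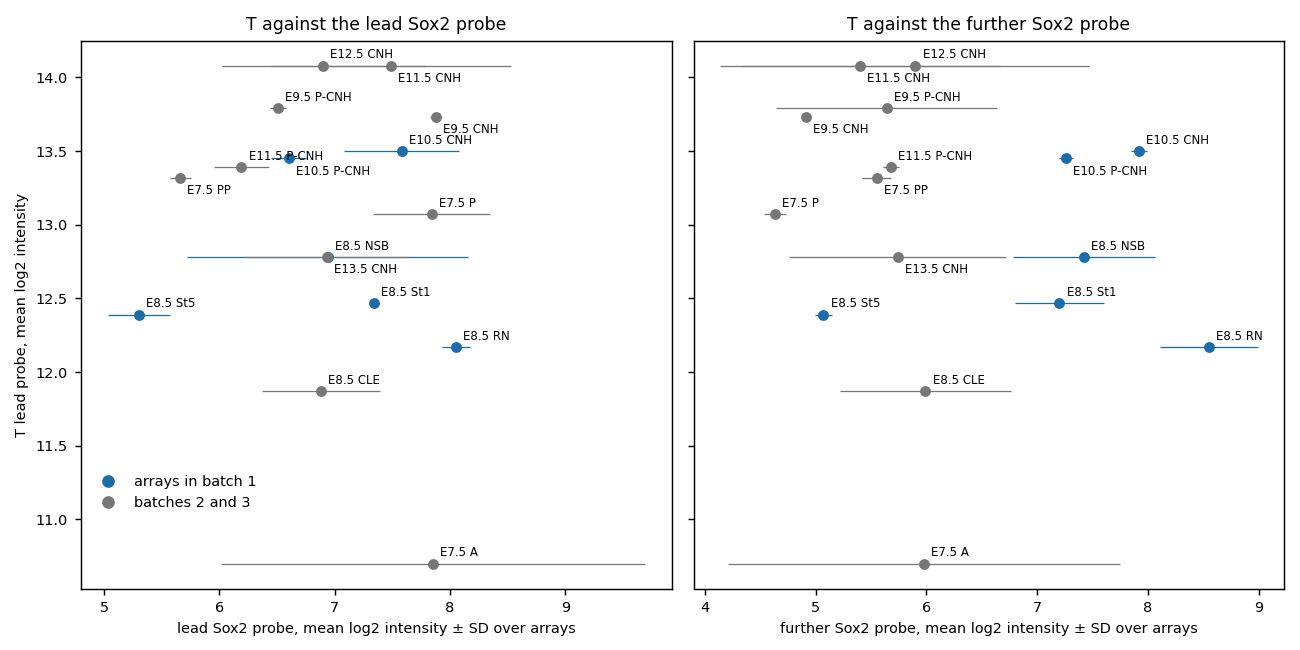
Mean log2 intensity of T (vertical axis) against the lead (left) and the further (right) Sox2 probe (horizontal axes) in the 16 regions, with bars for the SD of Sox2 over 2 or 3 arrays and blue for regions with arrays in batch 1. E7.5 A, at a mean T level of 10.70, lies apart from all other regions.

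T, whose product specifies mesoderm and is expressed with Sox2 in neuromesodermal progenitors, ranged from a mean of 10.70 in A to 14.08 in E11.5 and E12.5 CNH. It was lower in A than in P (-2.18, adjusted p = 0.00951) and than in PP (-3.00, adjusted p = 0.000316). At E8.5 its means were 12.17 in RN, 12.78 in NSB, 11.87 in CLE, 12.47 in St1 and 12.39 in St5, and no comparison there passed. So St5 held T at the level of the other pieces while neither Sox2 probe was detected in it. Over the 16 regions r of T with Sox2 was -0.246 for the lead probe and -0.187 for the further one, a description over regions that share batches.

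In the tail bud no member passed the test between the hinge and the tissue behind it. At E9.5, E10.5 and E11.5, CNH against P-CNH called 0 of 8 genes in limma, beside 0.17%, 0.318% and 0.161% of tested probes. At an unadjusted p under 0.05 there were 1 member at E9.5 (Irx3), 0 at E10.5 and 1 at E11.5 (Olig3). The lead Sox2 probe gave 7.91 and 7.84 in CNH against 6.46 and 6.56 in P-CNH at E9.5, 7.94 and 7.23 against 6.71 and 6.49 at E10.5, and 8.62, 7.28 and 6.57 against 6.02 and 6.36 at E11.5. CNH lay above P-CNH without overlap at each stage on this probe, by 0.84 (95% confidence interval -0.46 to 2.14), 0.98 (-0.27 to 2.24) and 0.60 (-0.63 to 1.83). Within batches these differences were 1.42, 0.98 and 0.38. The further probe put both E9.5 CNH arrays, undetected at 4.92 and 4.91, below those of P-CNH, at 4.94 and 6.35, and overlapped at E11.5. Its differences were 0.25, 0.66 and 1.03 with the batch term and -0.73, 0.66 and -0.28 without it, and at E9.5 it was called with BeadChip as a fixed block (1.57, adjusted p = 0.0452).

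The members' median difference was 0.37, 0.35 and 0.33 at the 3 stages, against 0.01, -0.01 and 0.00 over all genes, and 0.456% of all genes were called in at least 1 of these comparisons. In batch 1 alone, where the spread was smaller, the E10.5 comparison called 2 members, Sox2 (0.98, SE 0.205, adjusted p = 0.0268) and Irx3 (1.00, SE 0.223, adjusted p = 0.0377), beside 2.87% of all genes. Irx3 gave 6.92 and 6.38 in E10.5 CNH against 5.77 and 5.52 in P-CNH, the last undetected. Mnx1 gave 7.52, 7.83 and 7.41 in E11.5 CNH against 5.45 and 8.01 in P-CNH, and without the higher of these P-CNH arrays, replicate 2, it was called (2.05, adjusted p = 0.0111), with the lone array taken to vary like other regions.

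The hinge differed from the tissue behind it in notochord genes, of which 3, 4 and 2 of 8 were higher in CNH at the 3 stages and 0 lower, among them Shh at 5.18, 5.91 and 4.30. Among other neural genes, few were called. Of 9 spinal cord domain genes, 1 was higher in CNH at each stage (medians 0.06, 0.07 and 0.34), Lmx1a, a roof plate gene (3.76, 4.38 and 3.69). Of 13 neural progenitor genes, 0, 1 and 1 were higher (medians 0, 0.08 and 0.08). This was Sox21, a repressor of the SoxB2 group, at E10.5 (1.65, adjusted p = 0.0058) and E11.5 (1.49, adjusted p = 0.0231). Of 12 genes of neurogenesis and neurons 0 were higher at each stage, and 0 genes of these lists were lower.

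Between the node-streak border and the hinge, the members called were lower in the hinge. E10.5 CNH against NSB called 4 of 8 genes lower and 0 higher (background 7.14%, median -1.08 against -0.01 over all genes). E9.5 CNH against NSB called 2 lower (5.04%, median -0.06). These comparisons share the NSB arrays. At E10.5 CNH, Irx3 (6.92 and 6.38) and Nrcam (5.50 and 5.33, undetected) lay below all NSB arrays without overlap, as did Olig3 (5.78 and 5.79) and Hes3 (5.92 and 5.80).

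At E10.5 Hes3 fell by 3.24 on the log2 scale (SE 0.705, adjusted p = 0.00364), Irx3 fell by 2.16 (SE 0.505, adjusted p = 0.00697) and Olig3 fell by 1.38 (adjusted p = 0.00203). Nrcam was lower within batch 1 by at least 2.13-fold (adjusted p = 0.00334), and so was the further Neurog2 probe, undetected in the hinge, by at least 1.3-fold (adjusted p = 0.00151). At E9.5, Olig3 gave 5.55 and 5.84 and Nrcam 5.26 and 5.36, all undetected. Olig3 was lower by at least 2.15-fold (adjusted p = 0.00245) and Nrcam by at least 1.77-fold (adjusted p = 0.000878). E9.5 CNH and NSB share no batch, so these bounds also carry any shift between batches. The Nrcam call at E9.5 is lost with BeadChip as a fixed block (-1.64, adjusted p = 0.0565), and that of Hes3 at E10.5 without the batch term (-2.26, adjusted p = 0.0893) or without NSB replicate 2 (adjusted p = 0.0501). At E10.5 the Irx3 call is lost without NSB replicate 2 or CNH replicate 2 (adjusted p up to 0.114) and the Nrcam call without NSB replicate 1 or CNH replicate 2 (up to 0.0565). With an offset of 100, Nrcam (-0.57) and the further Neurog2 probe (-0.42) are also lost. Neither Sox2 probe was called at these steps. At E9.5 the further probe depended on the model, with 0.19 here, 1.54 with BeadChip as a fixed block (adjusted p = 0.0398) and -2.51 without the batch term. So did Irx3, with -0.42 here and -2.90 with BeadChip as a fixed block (adjusted p = 0.00657), and Mnx1, with -0.03 here, -1.93 with BeadChip as a fixed block (adjusted p = 0.0314) and 0.69 without the batch term. In batch 1 alone 5 members were lower at E10.5 than in NSB, Sox3 joining them (-0.87, adjusted p = 0.00839), while Mnx1 was higher by 0.55 (adjusted p = 0.0211), under the fold change needed, and 20.8% of genes were called.

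Among the other neural genes, 4 of 13 neural progenitor genes were lower and 1 higher in E10.5 CNH than in NSB (median -0.26). Pou3f1 fell by 2.71 and the intermediate filament gene Nes rose by 2.01 (adjusted p = 0.0034). Of the spinal cord domain genes 3 of 9 were lower and 0 higher, with Rfx4 at least 3.95-fold lower. Blood genes went the other way, with 3 of 6 higher in CNH at E9.5 (median 3.26) and at E10.5 (median 3.94). Their mean level was 7.52, 7.27 and 7.14 in NSB, 11.71 and 11.75 in E9.5 CNH and 11.20 and 11.40 in E10.5 CNH, where Hbb-y had the highest intensity. The part of blood cells in the members' fall was not tested.

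**Figure D5:**
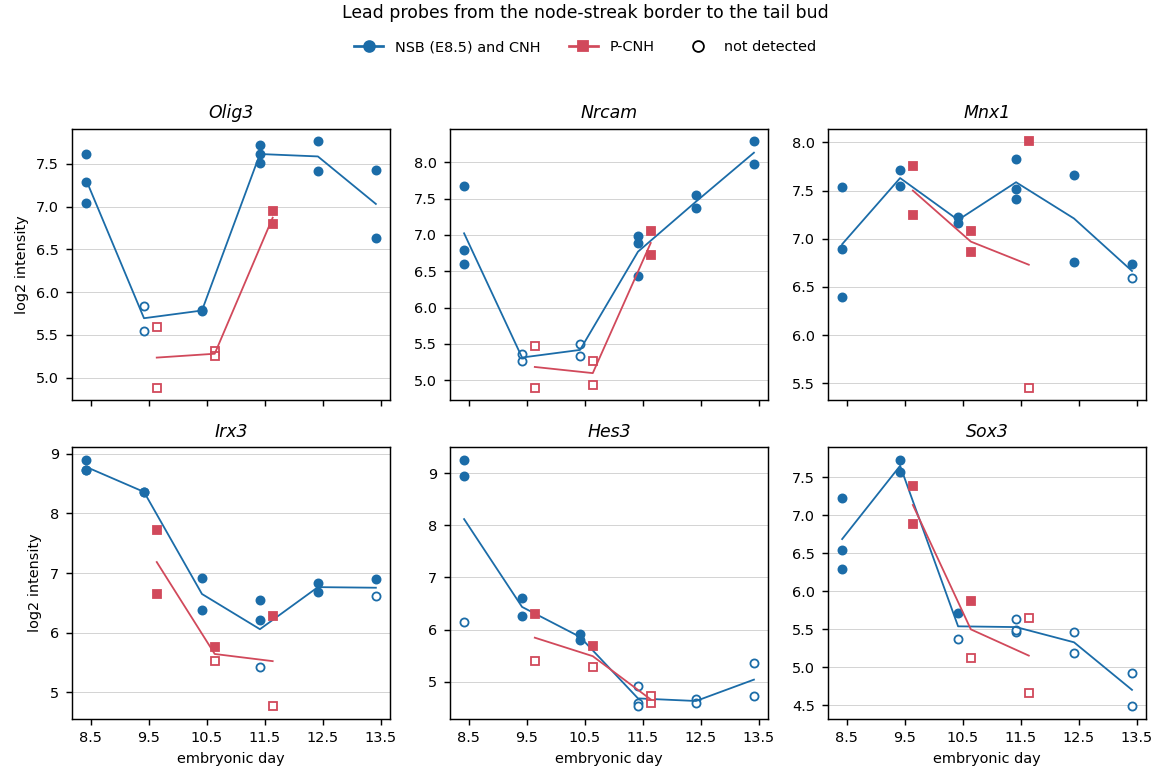
Log2 intensity of 6 lead probes on each array (vertical axes) by embryonic day (horizontal axes), for E8.5 NSB and then CNH (blue circles) and for P-CNH (red squares), with lines through the means and open symbols where the probe was not detected. Olig3 dips to 5.55 and 5.84 in E9.5 CNH and stands at 7.61, 7.51 and 7.72 at E11.5, while Hes3 is undetected from E11.5 on.

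Olig3 and Nrcam returned at the later stages. Olig3 gave 7.61, 7.51 and 7.72 in E11.5 CNH, 7.41 and 7.76 at E12.5, and 6.63 and 7.43 at E13.5, all detected and all above the E9.5 and E10.5 arrays. Nrcam gave 6.89, 6.43 and 6.99, then 7.55 and 7.37, then 7.98 and 8.29, each stage above the one before without overlap. P-CNH followed, with Olig3 at 6.95 and 6.79 and Nrcam at 7.05 and 6.73 at E11.5, after no detection at E9.5 and E10.5. In contrast, Hes3 was undetected on every CNH array from E11.5 on, at 4.53 to 5.36, and so was the lead Sox3 probe, at 4.49 to 5.64. The lead Sox2 probe was detected on all of them, at 6.28 to 8.62.

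None of the steps from each CNH stage to the next called a member (0 of 8 in each), beside 0.0737% of probes from E9.5 to E10.5, 0.0829% to E11.5, 0.226% to E12.5 and 9.33% to E13.5, with 1 member at each step at an unadjusted p under 0.05. From E10.5 to E11.5 this depended on the model. Olig3 (1.38 here, adjusted p = 0.606) was called higher without the batch term (1.83, adjusted p = 0.000352), with batch means removed before the fit (1.75, adjusted p = 0.00133) and with BeadChip as a random block (1.72, adjusted p = 0.00315). Without the batch term Nrcam was called higher (1.36, adjusted p = 0.0138, against 0.57) and the further Sox2 probe lower (-2.52, adjusted p = 0.0499, against -0.11). From E9.5 to E10.5 Hes3 was called lower without CLE replicate 2 or 3 (adjusted p = 0.0357 and 0.0474), and the further Neurog2 probe, undetected at these stages, with batch means removed (adjusted p = 0.0071). The steps at E10.5 cross between batch 1 and the others. Over the 6 comparisons across time 4 of 8 genes were called, beside 18.6% of all genes.

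Later stages were therefore compared with E9.5, a choice made after the values had been seen. Against E9.5 CNH, the counts called higher and lower were 2 and 1 at E11.5 (background 5.1%), 2 and 0 at E12.5 (4.62%), and 2 and 2 at E13.5 (23%). In P-CNH, E11.5 against E9.5 gave 2 and 0 (3%). The genes called higher were Olig3 and Nrcam each time. Olig3 rose by 1.92 (SE 0.262, adjusted p = 7.35e-05), 1.89 (adjusted p = 0.000218) and 1.34 (adjusted p = 0.00233) in CNH and by 1.64 (adjusted p = 0.00161) in P-CNH. Nrcam rose by 1.36 (SE 0.257, adjusted p = 0.00222), 2.00 (adjusted p = 8.43e-05) and 2.67 (adjusted p = 8.3e-07), and by 1.56 (adjusted p = 0.00219). As both were undetected at E9.5, these fitted values are no measure of size, and only lower bounds hold. Over the batches that both groups share, Olig3 differed by at least 2.56-fold, 2.3-fold and 1.34-fold in CNH and 1.73-fold in P-CNH. For Nrcam these bounds were 1.37-fold, 2.55-fold, 3.43-fold and 1.75-fold. Over all arrays they were 2.65-fold, 2.6-fold, 1.77-fold and 1.9-fold for Olig3 and 1.48-fold, 2.39-fold, 3.81-fold and 1.93-fold for Nrcam. Of these 8 calls, 6 were kept in all 11 alternatives tried and in all 36 fits that left out an array. That of Olig3 in P-CNH is lost without E9.5 P-CNH replicate 2 (1.17, adjusted p = 0.167). That of Nrcam at E11.5 is lost without E9.5 CNH replicate 1 (1.31, adjusted p = 0.054) and with BeadChip as a fixed or random block (adjusted p = 0.248 and 0.173).

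The genes called lower were Irx3 at E11.5 (-2.28, SE 0.469, adjusted p = 0.00497) and E13.5 (-1.58, SE 0.522, adjusted p = 0.0333), and Sox3 at E13.5 (-2.69, SE 0.734, adjusted p = 0.0114), which was undetected there and so is at least 2.01-fold lower. These calls held less well, with 8, 4 and 7 of the 11 alternatives keeping them. With BeadChip as a fixed block the differences were 0.20, 0.91 and -0.72, with adjusted p = 0.872, 0.335 and 0.717. Without either E9.5 CNH array all 3 are lost (adjusted p up to 0.0723, 0.127 and 0.0711), and Irx3 at E13.5 also without either array of that stage. In P-CNH the fall of Irx3 from E9.5 to E11.5 did not pass (-1.63, adjusted p = 0.107). It was called with BeadChip as a fixed block (adjusted p = 0.0056) and as a random block (-1.64, adjusted p = 0.0228). Between E9.5 and E11.5 CNH, 1 of 9 spinal cord domain genes was higher and 1 lower, and of 12 genes of neurogenesis and neurons 0 were higher and 3 lower. Surface ectoderm genes rose for 2 of 5 at E11.5 and 3 of 5 at E12.5 and E13.5 (medians 1.87, 2.79 and 4.03). Their mean level was 5.63 and 5.72 in E9.5 CNH, 6.84, 5.72 and 7.12 at E11.5, 7.85 and 7.70 at E12.5, and 8.79 and 8.47 at E13.5, where Krt14 had the highest intensity. The neural crest list had 2 of 3 genes higher at E12.5 and E13.5 (Snai2 and Ednrb), and 5 of 6 caudal epiblast and tail bud genes were lower at E13.5 (median -1.74). Between the E11.5 and E9.5 P-CNH, surface ectoderm genes were higher for 3 of 5 (median 2.63) and blood genes for 2 of 6 (median 2.56). Paraxial mesoderm genes were higher for 1 of 6 in CNH at E11.5, E12.5 and E13.5, and for 2 of 6 in P-CNH. The part of these tissues in the rise of Olig3 and Nrcam was not tested.

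The order of the regions by the mean of the array values, a description chosen after the values were seen, differed between members and carries the shifts between batches. For the lead Sox2 probe it ran from RN (8.05), E9.5 CNH (7.88), A (7.85, SD 1.84) and P (7.84) down to E11.5 P-CNH (6.19), PP (5.66) and St5 (5.30), and 4 of the 15 steps between neighbours were larger than the pooled SD. For the further probe the top 5 regions, RN (8.55), E10.5 CNH (7.92), NSB (7.42), E10.5 P-CNH (7.26) and St1 (7.20), all had arrays in batch 1, and E9.5 CNH (4.91) and P (4.63) came last. Hes3 led in RN (9.51), St1 (8.85), NSB (8.12) and CLE (7.86), and Mnx1 in E9.5 CNH (7.63) and E11.5 CNH (7.59). Most neighbours in these orders did not differ beyond their spread. With batch in the model the orders were others. The lead Sox2 probe then led in A (8.21) and E9.5 CNH (7.88), with RN (6.99) at rank 10 of 16, and the further probe in RN (7.16) and A (7.01). Hes3 led in CLE (8.84), P (8.15) and E9.5 CNH (7.56), with RN (7.47) at rank 4, and Mnx1 in E10.5 CNH (7.83), followed by the P-CNH of that stage (7.61). St5 was then last for both Sox2 probes and for Hes3. In the fitted orders the level of batch 1 regions against the others hangs on NSB replicate 3.

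Over the 16 fitted region means, Olig3 and Nrcam were the most alike pair of members (r = 0.865). Sox2 and Hes3 (0.647) and Sox3 and Irx3 (0.616) followed, while Irx3 and Mnx1 ran opposite (-0.611). For Sox2 and Sox3 the fitted means gave r = 0.0566, a value that hangs on NSB replicate 3 for the batch 1 regions. Within batch 1 both lead probes fell in the order RN, NSB, St1 and St5. There RN, NSB and St1 exceeded St5 by 2.75, 2.35 and 2.04 for Sox2 and by 1.98, 1.59 and 1.5 for Sox3. Across all genes, those most like the lead Sox2 probe were Synm (0.935), 5930431H10 (0.913), Hn1 (0.871), SPARC (0.862) and Slc35f1 (0.857). Those most like Hes3 were Actn2 and Ptprz1 (0.866 each), Lrrn2 (0.849), B230205C01Rik (0.844) and Errfi1 (0.834). Among those most like Mnx1 were Ddx49 (0.943), Eif1b (0.934), Rassf1 (0.93) and Hbb-bh1 (0.924). The 16 points share arrays, batches and the fitted batch term, and these coefficients carry no test.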

How the data were processed

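The 36 arrays (Illumina MouseWG-6 v2.0) measured RNA from pooled pieces of MF1 mouse embryos. The authors deposited, for each probe and array, an average bead intensity on a linear scale, with background included and no normalisation, and a detection p-value. From the deposited intensity values, limma 3.58.1 in R 4.3.3 was used for background correction with the detection p-values and quantile normalisation (neqc, offset 16). Probes detected on at least 1 array at a detection p-value below 0.01 were tested, and 23569 were left out. Arrays differed in sensitivity, with a lowest detected log2 value from 5.55 (E7.5 PP replicate 2) to 7.19 (E13.5 CNH replicate 2). A value undetected on one array can therefore lie above a detected value on another. One linear model held 16 regions and 3 batches (18 residual degrees of freedom). Calls needed a fold change of 1.5 or more and a p-value of 0.05 or less after Benjamini-Hochberg adjustment over all tested probes of a comparison. A gene was counted by its lead probe, which is the one of its tested probes with the highest mean over arrays on the log2 scale. Every further probe was described beside it. For genes with several tested probes, the difference of each further probe from the lead probe was tested across regions by a moderated F test in limma. The adjusted p-values rest on the spread between arrays of pooled pieces, and the number of arrays limits their precision. In batch 1 the replicates of a region had equal numbers of pieces (45 or 17) and lay on BeadChips 1 and 2. Those numbers alone do not show whether they were separate pools. A log2 difference from a group in which the gene was undetected on all arrays is a fitted value and no measure of size. Where a fold is given for such a difference, it is a lower bound, the mean of the detected group over the lowest detected value on the other group's arrays, or over the gene's own value where that is higher, over all arrays unless a batch is named. A bound over arrays of different batches, as in comparisons with CLE, also carries any shift between those batches. Members and marker lists were chosen with earlier results of these data known. Beside the members, up to 3 genes per list and comparison were named, those with the largest called difference and no overlap between arrays, together with T and genes among the 5 most correlated with Sox2, Hes3 and Mnx1. Genes of the lists with no probe (Pou3f2, Prdm12, Gdf7, Msgn1, Tfap2a and Tfap2b) were left out. Alternatives covered background correction, offset, normalisation, filter, batch, BeadChip, replicate block, choice of probe and each array left out in turn. The scripts were tested on simulated data. Promoter matches and plots used Python 3.11.15, NumPy 2.4.6 and matplotlib 3.10.9.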

Additional observations from a re-analysis of the deposited data

How the results depend on the processing

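Counts of member genes called were 3 of 8 among the E7.5 regions, 5 among the E8.5 regions, 0 between CNH and P-CNH and 4 across time, and the adjusted p of a regional difference between the Sox2 probes, a test with little hold on regions held in batch 2 alone, was 1. Most alternatives left these on the same side. With BeadChip as a fixed block, CNH against P-CNH called 1 gene (Mnx1 at E11.5), the E8.5 count was 7, with Sox3 and Mnx1 added, and that across time was 5, with Mnx1 lower in E9.5 CNH than in NSB (-1.93 against -0.03). Batch 1 alone called 8 genes in the 6 E8.5 comparisons it holds and 2 between CNH and P-CNH, and batches 2 and 3 alone called 0 in the 1 E8.5 comparison left and 2 across the 3 time steps left. Fewer arrays and fewer comparisons enter these, and beyond that the cause was not tested. With each array left out in turn, the counts were 2 to 3 at E7.5, 4 to 6 at E8.5, 0 to 1 between CNH and P-CNH and 2 to 4 across time, and the adjusted p for the Sox2 probes was 0.574 to 1 over 35 fits, since without E8.5 NSB replicate 3 no fit ties batch 1 to the others. With the replicate block, the counts were 4 at E7.5, 5 at E8.5, 0 between CNH and P-CNH and 4 across time, with an adjusted p of 1 for the Sox2 probes. Replicate numbers did not pair across regions: over 246 pairs of arrays with the same number, the correlation of their residuals ran from -0.716 to 0.738 with a median of 0.032. Of the 242 member differences, 36 had the opposite sign without the batch term, and 1 of these was called in either fit: the further Sox2 probe ILMN_1248711 was lower in E9.5 CNH than in E8.5 NSB at -2.51, against 0.19 with it. The others, such as Hes3 in E9.5 CNH against NSB (-1.69 against 0.50) and in RN against CLE (1.66 against -1.36), were called in neither. Batch 2, which holds both E9.5 CNH arrays, is the batch in which this probe was never detected, and the cause was not tested. Of the 43 called differences of members in the 22 comparisons chosen before the values were seen, 34 were kept without a batch term, 37 with an offset of 100, 38 without background correction, 41 with loess normalisation and 43 with the stricter filter. Of the 11 lead probe calls in the later comparisons with E9.5, 6 were kept in all 11 alternatives and with each array left out. Signal over background limits Neurog2, whose probes were detected on 2 and 4 arrays.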
